A study of Canis lupus familiaris with 30 samples.

Results

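The genes described are those of the proteasome, taken as the rows of the expression matrix whose symbol starts with PSMA, PSMB, PSMC, PSMD or PSME followed by a number. The rule found 22 rows among 32704 Ensembl gene IDs of the dog, and 19 of them are proteasome subunits or activators. PSMD9 and PSMD10 carry subunit names but code for assembly chaperones of the 19S base. The remaining row, PSME3IP1, codes for a protein that binds the activator PSME3 and is no subunit. Symbols were known for 5086 of the gene IDs, so the list is incomplete, and subunits such as PSMB5, PSMB6, PSMB8 and PSMB10 were not analysed here. For PSMA3, PSMB2, PSMB3, PSMC5, PSMD11, PSME1 and PSME3 the symbol came only from published rankings of six-week against initial expression in groups of these dogs, so for these 7 genes the naming itself leans on the timepoint comparison.

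RNA was sequenced from fine needle aspirates of enlarged lymph nodes of 15 dogs with lymphoma, with 1 library 6 weeks into CHOP and 1 initial library from before treatment in every dog, 30 libraries in all. CHOP combines cyclophosphamide, doxorubicin, vincristine and prednisone. The immunophenotype label was T-Cell in 3 dogs (028, 036 and 038), B-Cell in 7 dogs (003, 027, 029, 030, 033, 034 and 037) and Unknown in 5 dogs (024, 025, 026, 031_032 and 035). The dogs were enrolled to be given CHOP, a single earlier injection of prednisone was allowed, and no untreated dog is among the samples, so time and treatment cannot be told apart. An aspirate holds whatever cells the needle drew, and fewer cells of a type and less RNA per cell cannot be told apart in these values.

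The proteasome degrades proteins that carry ubiquitin chains. Its barrel, the 20S core, is built of alpha rings (PSMA genes) and beta rings (PSMB genes), and the beta rings carry the cutting sites. The 19S cap binds and unfolds the substrate with a ring of ATPases (PSMC genes) and non-ATPase subunits (PSMD genes). Interferon gamma replaces cutting subunits of the core by inducible ones, among them PSMB9, which takes the place of PSMB6, and raises PSME1 and PSME2, which form the activator PA28 alpha and beta. The inducible forms favour peptides for MHC class I, and lymphoid cells carry them without stimulation.

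Expression was measured as FPKM, reads scaled by transcript length and library depth, and tests were run on log2(FPKM+1). Total counts were 4318394 to 22952193 in the six-week libraries and 10047845 to 43413353 in the initial libraries, and the shallowest was the six-week library of dog 036. FPKM of the six-week library of dog 033 were low across genes, with a scale factor of 0.674, where the other libraries were at 0.898 to 1.25. In 9 dogs the counts ranked genes as the FPKM did (Spearman correlation across genes 0.880 to 0.983), and in the other 6 dogs (024, 027, 028, 029, 030 and 035) they did not (0.0868 to 0.117), so FPKM were used throughout and counts of the 9 dogs only as an alternative. In the initial libraries, markers of cell types went against the label in dog 038, and in part in dog 029. Dog 038, labelled T-Cell, had a mean log2 level of 6.09 over the B cell markers CD22 and PAX5, against 0.73 and 1.74 in the other dogs labelled T-Cell, and a mean of 2.56 over 6 T cell markers, against 6.33 and 6.07. Dog 029, labelled B-Cell, had 5.88 for the T cell markers, where the other 6 B-Cell dogs had 1.79 to 3.44. Its B cell markers stood at 4.89, where those dogs had 5.35 to 6.64, so only its T cell markers went against the label.

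All 22 genes were expressed in every library, and their levels covered a wide range. Among the core subunits, PSMA6 was highest, with 161 ± 67.3 FPKM in six-week libraries and 171 ± 40.8 FPKM in initial libraries (SD, n = 15 each). PSMB7, the subunit with the trypsin-like cutting site, followed with 100.3 ± 39.1 FPKM at 6 weeks and 110.0 ± 26.8 FPKM initially. PSMA4 was the lowest of the 22, at 8.81 ± 3.23 FPKM at 6 weeks and 9.65 ± 2.79 FPKM initially. The activator subunit PSME2 stood beside PSMA6, with 155 ± 45.1 FPKM at 6 weeks and 159 ± 40.6 FPKM initially. Its partner PSME1 had 49.99 ± 12.7 FPKM at 6 weeks and 53.9 ± 12.6 FPKM initially. The inducible cutting subunit PSMB9 was much lower, with 17.2 ± 5.85 FPKM at 6 weeks and 15.6 ± 5.41 FPKM initially. These levels are per length of the annotated transcript, and that length differs between genes. In the 18 libraries with counts in order, 1 FPKM equalled a median of 4.33 CPM (counts scaled to the library total) for PSMB9 and 1.04 CPM for PSMB7, so the distance between these genes in FPKM is not one in reads.

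**Figure D1:**
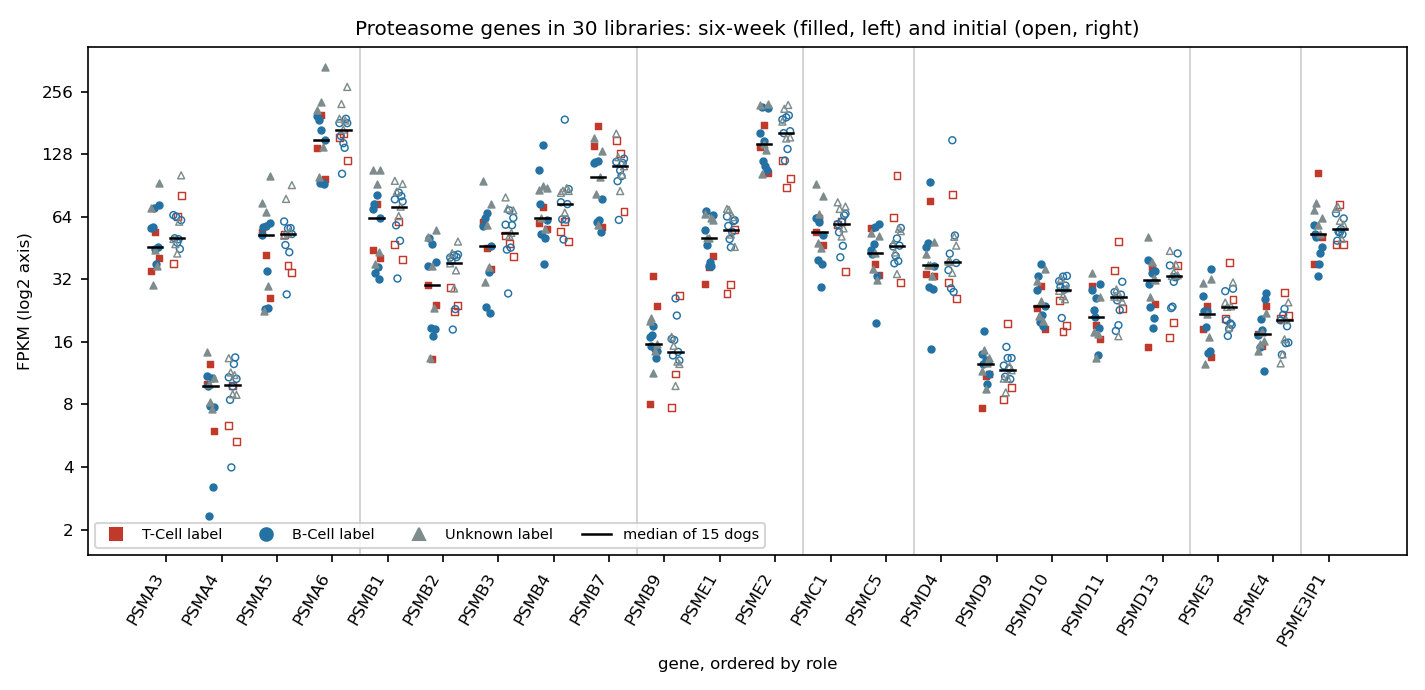
FPKM (log2 axis) of the 22 genes in 30 libraries, ordered by role, with six-week libraries as filled points on the left and initial libraries as open points on the right, colored by immunophenotype label, and the median of 15 dogs as a bar. The ranges of the timepoints overlap for every gene, PSMA6 and PSME2 are highest, PSMA4 is lowest, and open points of 1 B-Cell dog stand far above the rest for PSMB4 and PSMD4.

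The median spread between dogs was slightly lower for the 22 genes than for all genes within their range of levels, which was not tested. Levels were not matched gene by gene within that range. Over the 15 initial libraries, the SD of log2(FPKM+1) had a median of 0.38 over the 22 genes, and 0.43 over the 5908 genes with a mean in the same range of levels. PSME3IP1 varied least, with an SD of 0.22, and PSMD4, a 19S subunit that binds ubiquitin chains, varied most, with 0.64. For the change at 6 weeks the median SD over dogs was 0.43, against 0.47 over the 6099 genes in the same range of levels and 0.55 over all 14257 genes tested.

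Most of the genes had a slightly negative fitted change from the initial timepoint to 6 weeks, and none passed the test. The fitted change was negative for 20 of 22 genes, with a median of -0.14 on the log2 scale, while over all 14257 genes tested 48.6% were positive and the median was -0.01. Without the 7 genes named only through timepoint rankings, 13 of 15 were negative and the median was -0.09. Without dog 034, 19 of 22 were negative and the median was -0.08. On the FPKM of the 9 dogs with counts in order, 21 of 22 were negative and the median was -0.26. In each of the other 6 dogs the median change of the core subunits other than PSMB9 lay between -0.03 and 0.29. The 20 negative genes were lower in 6 (PSMB4) to 11 (PSMB7) of 15 dogs, and in 7 to 10 after scaling of the libraries. Many of the genes varied together across dogs, so their signs are not separate evidence. Limma called 0 of 22 genes at an adjusted p under 0.05, against 0% of all genes, and 1 gene had an unadjusted p under 0.05, as had 12.8% of all genes. EdgeR called 0 of the 22 and 0 of all genes on the counts of 9 dogs and on re-ordered counts of 15 dogs. DESeq2 called 1 of the 22 on the counts of 9 dogs, where it called 5.51% of all genes (3.42% as higher and 2.09% as lower).

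That 1 gene was PSMD11, a 19S subunit of the lid that helps the cap dock onto the core. PSMD11 ranged over 13.4, 21.2 and 34.4 FPKM (lowest, median, highest) in six-week libraries, against 17.04, 26.2 and 48.6 FPKM in initial libraries. It was lower at 6 weeks in 10 of 15 dogs, and the ranges overlapped widely. Its change was -0.25 ± 0.12 (SE) on the log2 scale, with an adjusted p of 0.381 by limma, and -0.53 ± 0.15 with an adjusted p of 0.0165 by DESeq2 on the counts of 9 dogs. PSMD11 is one of the 7 genes named through a ranking of this same contrast, so its call is no independent evidence. PSMB7 ranged over 54.1, 99.6 and 174 FPKM at 6 weeks, against 61.8, 112 and 161 FPKM initially. It was lower in 11 of 15 dogs (9 after scaling of the libraries), with a change of -0.19 ± 0.11 and an adjusted p of 0.466. PSMB3, a structural beta subunit without a cutting site, ranged over 21.99, 46.4 and 95.1 FPKM at 6 weeks, against 27.4, 53.5 and 79.3 FPKM initially. Its change was -0.21 ± 0.13, with an adjusted p of 0.492, and it was lower in 10 of 15 dogs (8 after scaling of the libraries). Without dog 034 the change of PSMB3 was -0.13.

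Only PSMB9 and PSMD9 had a positive fitted change. PSMB9 ranged over 8.07, 15.6 and 33.1 FPKM at 6 weeks, against 7.70, 14.3 and 26.7 FPKM initially. It was higher at 6 weeks in 11 of 15 dogs (9 after scaling of the libraries), with a change of 0.14 ± 0.12 and an adjusted p of 0.641. In 1 dog, 036, the change was 1.48, where the next highest was 0.42. Without dog 036 the fitted change of PSMB9 was 0.04. PSMD9, an assembly chaperone of the 19S base, had a change of 0.03 ± 0.09 and an adjusted p of 0.909. PSME1 had -0.11 ± 0.09 (adjusted p = 0.629) and PSME2 had -0.05 ± 0.14 (adjusted p = 0.913). The other 15 genes had changes of -0.04 to -0.22.

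The dogs differed from each other. In dog 027 all 22 genes were higher at 6 weeks, with a median change of 0.23, where all genes tested had a median of 0.05. Dogs 024 and 035 were higher for 19 and 18 of 22 genes. Dog 034 was lower for 19 genes, with a median of -0.67 against 0.17 over all genes, and dog 025 was lower for 18 genes, with a median of -0.55 against 0.13. Dog 031_032 was lower for 19 genes, with a median of -0.48 against -0.08 over all genes. Dog 033 was lower for all 22, but 84.8% of all genes were lower in that dog, and after scaling of the libraries 10 of 22 were lower. In dogs 025 and 034 the core subunits other than PSMB9 had median changes of -1.13 and -1.10. In these same dogs the mean log2 level of T cell markers was 5.69 and 5.64 at 6 weeks, against 2.09 and 3.44 initially, and that of 4 macrophage and monocyte markers was 5.31 and 5.14 at 6 weeks, against 2.14 and 2.76 initially. The mean of the 2 named neutrophil markers was 5.31 and 4.37 at 6 weeks, against 1.35 and 1.47 initially, and that of the B cell markers was 4.02 and 4.30 at 6 weeks, against 5.86 and 5.57 initially. The part of these markers in the result was not tested.

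**Figure D2:**
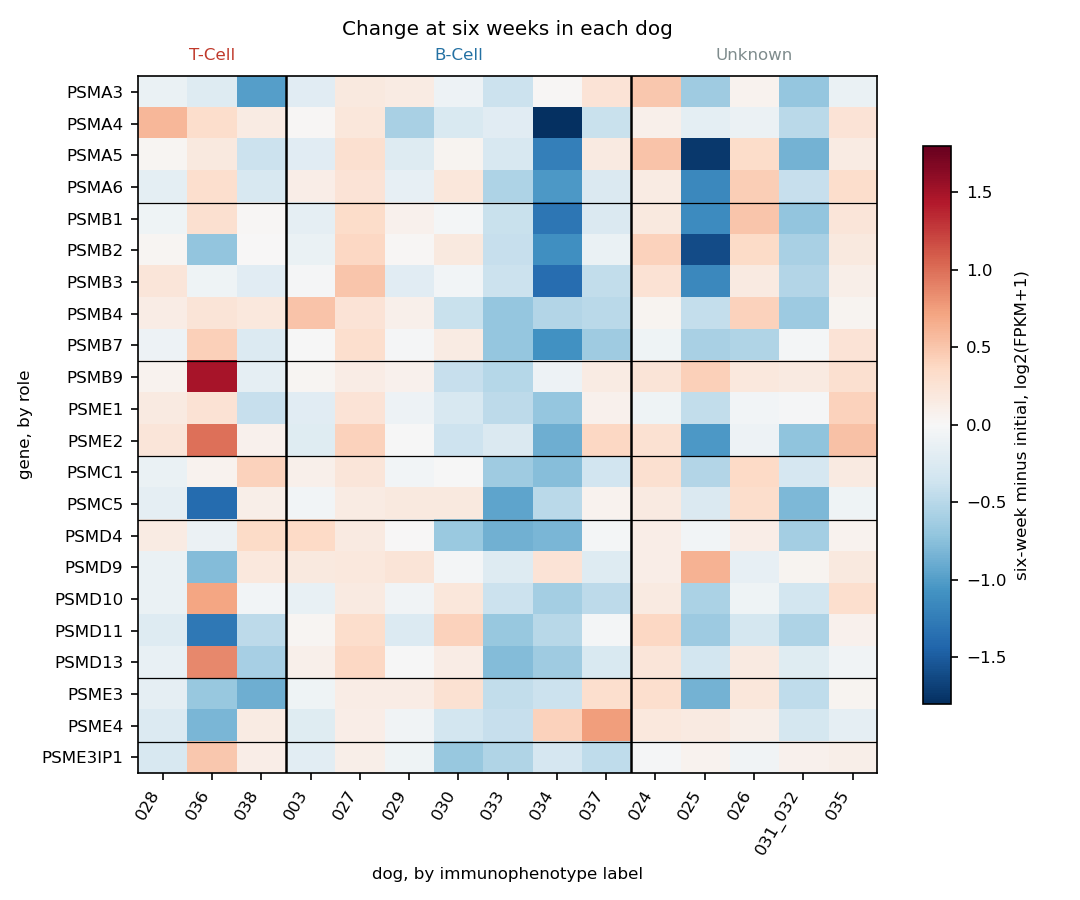
Six-week minus initial log2(FPKM+1) of each gene (rows, by role) in each dog (columns, by immunophenotype label), red for higher and blue for lower at 6 weeks. Dog 027 is red for all 22 genes, dogs 025 and 034 are dark blue for most core subunits, and dog 036 has PSMB9 at 1.48 beside PSMC5 at -1.38.

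Over all dogs, genes of other lists differed at the same time, none of them past the test. All 9 named genes of 10 cycling genes were lower at 6 weeks (median -0.47), all 6 named T cell markers were higher (median 0.70) and all 4 named macrophage and monocyte markers were higher (median 0.66). Of 28 other genes of the proteasome system, such as assembly factors, ubiquitin receptors and regulators, 15 had a symbol. In the 15 dogs, 3 of these 15 were positive and 12 negative, with a median of -0.16, and 0 were called by limma. PSMG2, a chaperone that helps assemble the alpha ring, had a change of -0.39 ± 0.13 with an adjusted p of 0.305.

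Within the labels, limma again called 0 of 22 genes at 6 weeks against the initial timepoint, and 0% of all genes. An unadjusted p under 0.05 was reached by 2 of the 22 in T-Cell dogs, 2 in B-Cell dogs and 0 in Unknown dogs, and by 20.1%, 3.84% and 4.56% of all genes. On the counts of 9 dogs edgeR called 0 of the 22 under each label. It called 106 of 11790 genes as higher and 348 as lower in T-Cell dogs, and 0 genes under the other labels. DESeq2 called 0 of the 22 in B-Cell and Unknown dogs. Of 11510 genes it called 1 and 70 there as higher and 1 and 8 as lower. In T-Cell dogs DESeq2 called 1 of the 22, again PSMD11. There DESeq2 called 14.8% of all genes (6.8% as lower), and the 9 dogs hold only dogs 036 and 038 of the T-Cell label.

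In T-Cell dogs PSMD11 was at 29.8, 19.3 and 16.5 FPKM at 6 weeks in dogs 028, 036 and 038, against 35.3, 48.6 and 23.2 FPKM initially. It was lower in each of the 3 dogs, with a change of -0.67 ± 0.25 on the log2 scale and an adjusted p of 0.175 by limma, and of -0.35 without dog 036. PSME3, the nuclear activator PA28 gamma, was at 18.4, 23.8 and 13.5 FPKM at 6 weeks, against 20.7, 38.7 and 25.6 FPKM initially (-0.57 ± 0.23, adjusted p = 0.191). PSMA3, an alpha subunit, was also lower in the 3 dogs, with -0.45 ± 0.22 and an adjusted p of 0.273, but its changes were -0.13, -0.23 and -0.99, and without dog 038 the fitted value was -0.18. PSMB9 had a change of 0.46 ± 0.24 with an adjusted p of 0.297, which rested on dog 036, at 33.1 FPKM at 6 weeks against 11.2 FPKM initially. The other T-Cell dogs had PSMB9 changes of 0.06 and -0.17, and without dog 036 the fitted change was -0.05. PSME2 was higher in the 3 dogs, by 0.22, 0.99 and 0.08, with 0.43 ± 0.30 and an adjusted p of 0.415, and 0.15 without dog 036. PSMA4 had 0.35 ± 0.28 with an adjusted p of 0.491. PSMB7 and PSME1 stood at 0.03 ± 0.25 and 0.00 ± 0.20. In dog 036 the mean of the B cell markers was 4.25 at 6 weeks against 0.73 initially, and that of the macrophage and monocyte markers 4.26 against 1.49. The part of these markers in the result was not tested.

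In B-Cell dogs the fitted change was negative for 20 of 22 genes, with a median of -0.18, against 0.00 over all genes. Without dog 034, 20 of 22 were again negative and the median was -0.08. PSME3IP1 ranged over 33.1, 45.6 and 58.3 FPKM at 6 weeks, against 49.1, 54.2 and 66.5 FPKM initially, with a change of -0.31 ± 0.11 and an adjusted p of 0.935. PSMA4 had -0.43 ± 0.19 and PSMB7 -0.29 ± 0.17, both with an adjusted p of 0.935. For PSMA4 the value leaned on dog 034, whose change was -1.79 where the other 6 dogs lay between -0.58 and 0.21. Without dog 034 PSMA4 had -0.21 and PSMB7 -0.15. On the positive side were PSMD9 at 0.05 ± 0.13 and PSME4, the activator PA200, at 0.04 ± 0.15. PSMB9, PSME1 and PSME2 had -0.09 ± 0.16, -0.21 ± 0.13 and -0.13 ± 0.19.

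In Unknown dogs 19 of 22 genes had a negative fitted change, with a median of -0.12, against 0.03 over all genes. Without dog 031_032, whose 2 libraries carry different numbers and were paired by elimination, 13 of 22 were negative and the median was -0.04. Without dog 025, 10 of 22 were negative and the median was 0.02. PSMB9 was higher at 6 weeks in all 5 dogs. It stood at 20.1, 20.9, 11.3, 14.5 and 15.6 FPKM in dogs 024, 025, 026, 031_032 and 035, against 16.9, 15.3, 9.81, 12.9 and 12.5 FPKM initially. Its change was 0.26 ± 0.19 with an adjusted p of 0.951. PSMD9 had 0.16 ± 0.15 and PSME3IP1 0.03 ± 0.14. The lowest p among the negative ones were those of PSMA5 (-0.32 ± 0.27), PSMD11 (-0.22 ± 0.20) and PSMA3 (-0.18 ± 0.17), all with an adjusted p of 0.951. Without dog 025 the change of PSMA5 was 0.04. PSMB7, PSME1 and PSME2 had -0.20 ± 0.20, -0.03 ± 0.16 and -0.21 ± 0.23.

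Whether the change differed between T-Cell and B-Cell dogs was tested as an interaction, and limma called 0 of 22 genes and 0% of all genes, with 1 of 22 and 15.3% of all genes at an unadjusted p under 0.05. EdgeR and DESeq2 on the counts of 9 dogs also called 0 of the 22. Over all genes edgeR called 7 as higher and 1 as lower of 11790, and DESeq2 called 436 and 388 of 11510. PSMA4 had the smallest p, with a difference of 0.78 ± 0.34 between a mean change of 0.35 in T-Cell dogs and -0.43 in B-Cell dogs (adjusted p = 0.299). Its changes were 0.14 to 0.60 in the T-Cell dogs and -1.79 to 0.21 in the B-Cell dogs, which overlapped. PSME3IP1 and PSMB9 followed with 0.41 ± 0.21 and 0.55 ± 0.29 (adjusted p = 0.358 and 0.367). On the other side PSME3 had -0.56 ± 0.27, PSMD11 -0.57 ± 0.30 and PSMA3 -0.43 ± 0.27 (adjusted p = 0.336, 0.369 and 0.425). PSME2, PSMB7 and PSME1 had 0.56 ± 0.35, 0.32 ± 0.30 and 0.21 ± 0.24. Single dogs carried much of these differences. Without dog 036 the difference was 0.04 for PSMB9, 0.22 for PSME3IP1, -0.25 for PSMD11 and 0.28 for PSME2, and without dog 038 it was -0.16 for PSMA3. In the same contrast all 4 named macrophage and monocyte markers (median 1.73) and all 3 named plasma cell markers (median 1.68) were positive, and their part in the result was not tested.

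Before treatment, the subunits of the PA28 activator were lower in T-Cell dogs than in B-Cell dogs, without passing the test over all dogs. PSME2 was at 119.7 FPKM in dog 028, 88.7 FPKM in dog 036 and 97.9 FPKM in dog 038, against 119.3, 165 and 197 FPKM (lowest, median, highest) in the 7 B-Cell dogs. The groups met at a single point, dog 028 being just above dog 029. The difference was -0.68 ± 0.20 on the log2 scale, with an adjusted p of 0.0798 by limma. PSME1 was at 27.3, 30.3 and 55.5 FPKM in dogs 028, 036 and 038, against 45.6, 57.8 and 64.2 FPKM in the B-Cell dogs. Here dog 038, whose B cell markers were high, lay among the B-Cell dogs, and the difference was -0.63 ± 0.21 with an adjusted p of 0.110. PSMD10, the assembly chaperone known as gankyrin, was at 25.3, 17.9 and 19.1 FPKM in the T-Cell dogs, against 20.8, 29.8 and 33.2 FPKM in the B-Cell dogs. Its difference was -0.48 ± 0.17 with an adjusted p of 0.117, and dog 029 was the lowest of the B-Cell dogs.

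On the other side, PSMD11 was at 35.3, 48.6 and 23.2 FPKM in the T-Cell dogs, against 18.1, 25.4 and 31.1 FPKM in the B-Cell dogs, with a difference of 0.49 ± 0.23 and an adjusted p of 0.227. Dogs 028 and 036 lay above every B-Cell dog and dog 038 within them. PSME3 (0.35 ± 0.22, adjusted p = 0.349) and PSME4 (0.33 ± 0.22, adjusted p = 0.375) were the next. PSMB9 was at 7.70, 11.2 and 26.7 FPKM in the T-Cell dogs, against 13.02, 16.3 and 25.9 FPKM in the B-Cell dogs. Dogs 028 and 036 were thus below all B-Cell dogs and dog 038 above all of them, and the difference was -0.32 ± 0.30 with an adjusted p of 0.548. Its sign turned in the 9 dogs, with 0.16 ± 0.41 by DESeq2. PSMB7 had 0.12 ± 0.27, and 0.46 without dog 038.

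Marker levels differed between the labels too. The mean of 6 named T cell markers was 2.56 to 6.33 in the T-Cell dogs, against 1.79 to 5.88 in the B-Cell dogs, and that of the B cell markers was 0.73 to 6.09, against 4.89 to 6.64. None of these markers was at 0 in any library, and their part in the result was not tested.

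Limma called 0 of 22 genes in this comparison, where it called 0.361% of all genes, and 3 of 22 had an unadjusted p under 0.05, as had 22.5% of all genes. EdgeR called 0 of the 22 and 0 of all genes on the counts of 9 dogs. On re-ordered counts edgeR called 0 of the 22, beside 363 genes as higher and 72 as lower of 11341. DESeq2 called PSME2 and PSMD10 as lower on the counts of 9 dogs, where the T-Cell label is left with dogs 036 and 038. There it called 7.62% of all genes as higher and 6.78% as lower. The count turned on dog 038, whose markers went against its label, and on dog 029, whose T cell markers did. Without dog 038, limma called PSME1 (-0.94 ± 0.19, adjusted p = 0.00544) and PSMD13 (-0.75 ± 0.22, adjusted p = 0.0314), a lid subunit, as lower in T-Cell dogs, and PSMC5 (0.81 ± 0.23, adjusted p = 0.0251), a 19S ATPase, and PSMD11 (0.76 ± 0.24, adjusted p = 0.0408) as higher. Of all genes 17.7% were then called (8.13% as higher and 9.6% as lower), so that 4 of 22 was close to the background. Without dog 029, PSME2 (-0.76 ± 0.18, adjusted p = 0.0251) and PSMD10 (-0.56 ± 0.14, adjusted p = 0.0287) were called as lower, beside 10.2% of all genes (5.05% as higher and 5.18% as lower). Without both dogs 2 genes were called as higher (PSMC5 and PSMD11) and 5 as lower (PSMB9, PSMD10, PSMD13, PSME1 and PSME2), beside 26.2% of all genes (12.6% as higher and 13.6% as lower), and PSMB9 then had a difference of -0.80 ± 0.27 with an adjusted p of 0.0446. These fits leave 2 dogs labelled T-Cell wherever dog 038 is out.

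**Figure D3:**
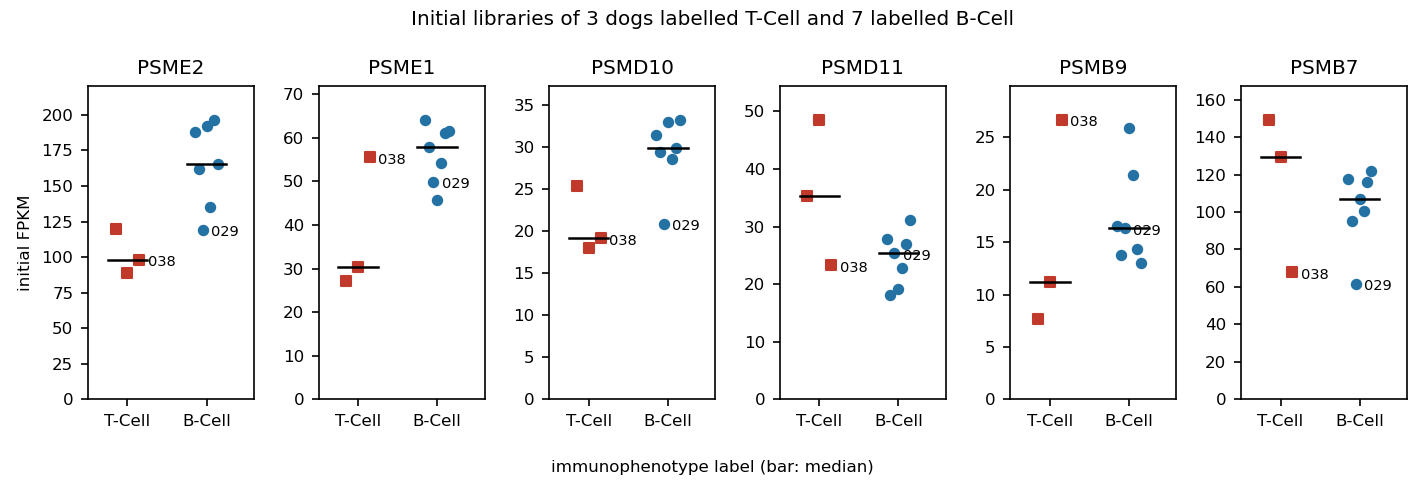
Initial FPKM of 6 genes in 3 dogs labelled T-Cell (left, squares) and 7 dogs labelled B-Cell (right, circles), with the median as a bar and dogs 038 and 029 named. PSME2 and PSMD10 are lower in the T-Cell dogs and close to dog 029, and for PSME1, PSMD11 and PSMB9 dog 038 lies apart from the other T-Cell dogs.

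At 6 weeks the same contrast gave 0 of 22 genes and 0% of all genes by limma, with 0 of 22 and 8.28% of all genes at an unadjusted p under 0.05. EdgeR and DESeq2 on the counts of 9 dogs called 0 of the 22. Over all genes edgeR called 0, and DESeq2 called 5 as higher and 9 as lower of 10855. PSME1 stood at 30.5, 36.6 and 41.6 FPKM in dogs 028, 036 and 038, against 37.0, 47.0 and 68.5 FPKM (lowest, median, highest) in the B-Cell dogs, a difference of -0.42 ± 0.24 with an adjusted p of 0.640. PSMD9 and PSMB2 had -0.36 ± 0.22 and -0.47 ± 0.45. PSME3IP1, PSMB7 and PSMA4 had 0.37 ± 0.28, 0.44 ± 0.39 and 0.39 ± 0.40. For PSME2 the difference was -0.12 ± 0.31 and for PSMB9 0.23 ± 0.32. Without dog 036 PSMB2 had -0.14 and PSME3IP1 -0.04, and without dog 038 PSMB7 had 0.91.

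The balance of the inducible subunit PSMB9 to the constitutive subunit PSMB7 leaned towards PSMB9 at 6 weeks in most dogs. PSMB9 minus PSMB7 on the log2(FPKM+1) scale was -2.43 ± 0.64 in six-week libraries and -2.76 ± 0.69 in initial libraries (SD, n = 15 each). The difference was higher at 6 weeks in 13 of 15 dogs, by 0.33 ± 0.48 on average, and it was higher in 3 of 3 T-Cell dogs, 5 of 7 B-Cell dogs and 5 of 5 Unknown dogs. Dogs 027 and 030 went the other way, and dogs 025, 034 and 036 had the highest values, 1.001, 1.002 and 1.05. In the 9 dogs with counts in order it was higher in 9 of 9, by 0.57 ± 0.44 in CPM and by 0.56 ± 0.43 in FPKM. These 9 include dogs 025, 034 and 036 and leave out dogs 027 and 030, so they hold the largest rises and neither fall. CPM per FPKM hardly varied in these libraries (4.27 to 4.42 for PSMB9, 1.03 to 1.06 for PSMB7), so the CPM value is no second check. PSMB7 is not the subunit that PSMB9 replaces. PSMB9 minus PSMB7 is therefore a balance of 2 cutting subunits and no exchange between them, and it was not tested. PSME1 and PSME2 against the mean of the PSMC and PSMD genes, the chaperones PSMD9 and PSMD10 included, stood at 1.52 ± 0.27 in six-week libraries and 1.48 ± 0.39 in initial libraries, and was higher at 6 weeks in 7 of 15 dogs.

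**Figure D4:**
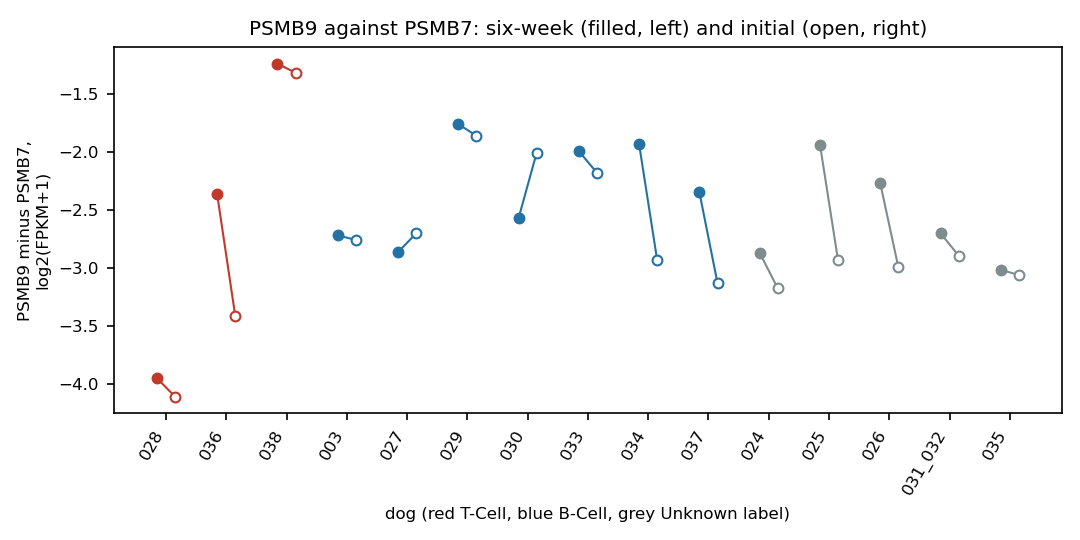
PSMB9 minus PSMB7 in log2(FPKM+1) for each of 15 dogs, six-week library filled on the left and initial library open on the right, joined by a line. The filled point is the higher one in 13 of 15 dogs, and dogs 027 and 030 are the exceptions.

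The core subunits moved together across dogs in their changes, with lower correlations to PSMB9. Among the 36 pairs of the 9 core subunits other than PSMB9, the median Pearson correlation over the 15 initial libraries was 0.65, and 26 pairs were over 0.5. With PSMB9 the median over 9 pairs was -0.06, and 0 pairs were over 0.5. The initial values rested on dogs 029 and 038, which were among the lowest 2 dogs for 8 and 7 of the 9 core subunits. Without them the median was 0.36 among the core subunits, with 14 of 36 pairs over 0.5, and 0.23 with PSMB9. PSMA3 also stood apart from the other core subunits in initial libraries, with a median of -0.06 over 8 pairs, and less so for the changes, with 0.35. For the changes at 6 weeks the median was 0.65 among the core subunits and 0.21 with PSMB9, and without dogs 029 and 038 it was 0.68 and 0.22. The 19S ATPase PSMC1 followed the core, with medians of 0.76 initially and 0.75 for the change, and PSME2 did so with 0.62 and 0.62. PSMD9 had -0.13 and -0.27, and PSME4 had -0.19 and -0.25. These correlations share libraries and their scaling, and they are a description without a test.

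In all, 7 pairs of genes were compared across the 15 dogs, each for initial levels and for changes, with p adjusted over the 14 relations by the Benjamini-Hochberg method. Among these pairs only PSMB9 with TAP1 was planned. Some of the others were chosen for their values, which can lower the adjusted p of the rest. The adjusted p given here are therefore no controlled error rate. PSMB9 and TAP1, the peptide transporter of the class I pathway, had r = 0.685 (permutation p = 0.0050, adjusted p = 0.0117) and rho = 0.546 (permutation p = 0.0384, adjusted p = 0.0597) in initial libraries. Without dogs 038 and 028, which were farthest from the median of PSMB9, r was 0.397, and without the T-Cell dogs it was 0.349 (permutation p = 0.266), so that the relation rests on those dogs. For the changes r was 0.506 (permutation p = 0.0725, adjusted p = 0.101) and rho 0.621 (permutation p = 0.0153, adjusted p = 0.0305). TAP1 is the next gene to PSMB9 in the RefSeq annotation of the assembly UU_Cfam_GSD_1.0, without overlap there.

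The other pairs were added after the data were examined and are given as a description, without p. PSME1 and PSME2, parted by 1 gene in that annotation, had r = 0.673 initially and 0.773 for the change, with rho of 0.650 and 0.804. Without the 2 farthest dogs r was 0.463 and 0.693. PSMB7 and PSMA6 had r = 0.626 and rho = 0.546 initially and r = 0.717 and rho = 0.700 for the change, but r = 0.174 initially without dogs 029 and 038. PSMB7 had r = 0.367 with the proliferation gene MKI67 initially and -0.135 for the change, with rho of 0.179 and -0.136. PSMB7 and PSMB9 had r = -0.379 initially and 0.410 for the change, with rho of -0.257 and 0.304.

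A pair of relations was chosen for its values. PSMB1 and PSMB3, both beta subunits without a cutting site, had r = 0.932 initially and 0.925 for the change. PSMB2, a beta subunit, and TOP2A, the DNA topoisomerase of dividing cells, had r = 0.931 and rho = 0.957 for the change, and r = 0.652 and rho = 0.421 in initial libraries. Without the 2 farthest dogs the value for the change was 0.928.

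PSMD4 and PSMB4, a beta subunit, were far higher in 1 dog than in all others. In dog 030, labelled B-Cell, PSMD4 was at 94.0 FPKM at 6 weeks and 149 FPKM initially, where the other 14 dogs had medians of 37.3 and 38.6 FPKM and highest values of 76.1 and 81.6 FPKM. PSMB4 was at 142 FPKM at 6 weeks and 188 FPKM initially in dog 030, where the others had medians of 62.6 and 70.3 FPKM and highest values of 107 and 87.9 FPKM. In the RefSeq order of genes only 4 protein-coding genes lie between PSMD4 and PSMB4. Genes around them were high in the same dog. In a stretch of 58 protein-coding genes from SF3B4 to TDRKH, 18 had a symbol and a mean initial FPKM above 1, and all 18 were higher in the initial library of dog 030 than in every other dog. The share of all 13565 such genes that were highest in dog 030 was 6.16%.

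Over these 18 genes, (FPKM+1) in dog 030 was 3.22 times the median of the other dogs initially (median, range 1.86 to 9.04), where all genes had a median of 1.02. At 6 weeks it was 1.81 times (range 1.08 to 4.85), and 12 of 18 were highest in dog 030. MCL1, an inhibitor of apoptosis of the BCL2 family, lies in the stretch and was at 122 FPKM at 6 weeks and 193 FPKM initially in dog 030, where the other dogs had medians of 73.5 and 56.7 FPKM. The named genes on the outer sides, FCGR1A and MAGI3, ranked 13 and 3 of 15 from the lowest dog upwards initially. FCGR1A was nonetheless at 2.72 times the median of the other dogs at 6 weeks and 2.23 times initially, within the range of the stretch, so its end on that side is not sharp. MAGI3 was at 0.76 times at 6 weeks and 0.69 times initially. The stretch and its ends were chosen after the values were seen, and no test was run.

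**Figure D5:**
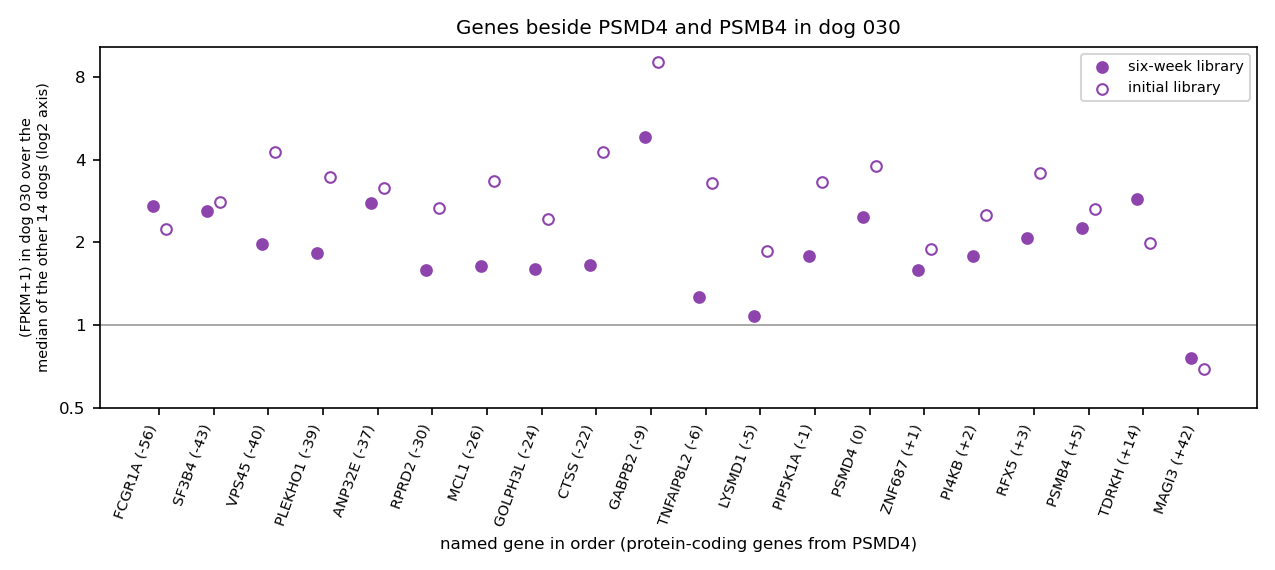
(FPKM+1) in dog 030 over the median of the other 14 dogs (log2 axis) for the named genes beside PSMD4 and PSMB4, in RefSeq order, with the number of protein-coding genes from PSMD4 in brackets, six-week library filled and initial library open. From SF3B4 to TDRKH every open point lies between 1.86 and 9.04, and MAGI3 lies below 1.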

How the data were processed

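The authors aligned single reads to CanFam3.1 with HISAT2 2.1.0 and assembled and quantified transcripts with StringTie 1.3.3, per the labels and the processing notes. The deposited FPKM correct for transcript length and sequencing depth and carry no log. The deposited counts are whole, unscaled numbers of reads, and in 6 dogs they stand under other gene IDs. Count tests therefore used the other 9 dogs, or all dogs after those counts were moved to the gene whose FPKM profile they follow (11512 of 11512 genes placed, all 22 of the proteasome among them). Because they were placed by FPKM, the re-ordered counts of those 6 dogs are bound to follow it and are no independent check. Symbols came from the first part of the supplementary tables and name 5086 of 32704 gene IDs. Members and lists were chosen with earlier results of these data known.

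The main test was limma 3.58.1 in R 4.3.3 on log2(FPKM + 1) after genes at a mean FPKM of 1 or less were dropped. Timepoints were compared within dogs (dog as block), and a call needed an adjusted p (Benjamini-Hochberg, over all genes) under 0.05. The change, the difference in change and the differences within a timepoint are six-week minus initial and T-Cell minus B-Cell. EdgeR 4.0.16 and DESeq2 1.42.0 were alternatives, limited to genes whose normalized counts averaged over 50. Scripts were tested on simulated data. Relations used 100000 permutations (two-sided) in Python 3.11.15 with NumPy 2.4.6, SciPy 1.17.1 and pandas 2.3.3. Genes given in full were PSMB7, PSMB9, PSME1, PSME2 and the 3 with the smallest p in each direction of each comparison. PSMB9 against PSMB7 took the place of PSMB9 against PSMB6. The fit on the FPKM of 9 dogs, the pairs of genes other than PSMB9 with TAP1, the correlations without dogs 029 and 038, the counts without 7 genes and the neighbours of PSMD4 were added after the data were examined.

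Paired libraries of a dog deviated together with a median correlation of 0.601 (lowest -0.11 in dog 025), and 14 of 15 were above 0.1. The initial library correlated best with its own six-week partner in only 9 of 15 dogs. In dogs 025, 031_032, 034, 036, 037 and 038 it correlated better with the six-week library of another dog. The correlation with the own partner was 0.11 in dog 036 and 0.14 in dog 037. The labels give the dog by its number, except for dog 031_032, paired by elimination (0.344). No copy was found among 102 pairs of libraries (a chi-square of at least 32.1 times its degrees of freedom). These pairs were of the same timepoint, within the 9 dogs with counts in order or within the other 6. Pairs across timepoints or across these sets of dogs were not compared. Each dog gave 1 aspirate per timepoint, so the spread is that between dogs. Counts of the 22 genes in the 9 dogs were 29 to 11041 per library.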

Additional observations from a re-analysis of the deposited data

Results flagged for a closer look

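Examined were 132 groups of values (22 genes, the B-Cell and the Unknown dogs, and 2 levels and 1 change each). Of these, 8 held a dog far from the others by Dixon's test. Chance gives about 5% of groups, so the count is close to that background. The groups share dogs and are not independent. Dog 030 was far above the other B-Cell dogs for PSMB4 initially (187.8 FPKM, others 49.8 to 86.9) and for PSMD4 at 6 weeks (94.0 FPKM, others 14.8 to 47.7) and initially (149.4 FPKM, others 27.8 to 52.0). Dog 034 was far below them for the change of PSMA4 (-1.79, others -0.58 to 0.21) and of PSMA5 (-1.24, others -0.29 to 0.29). Dog 029 was far below them for PSMD10 initially (20.8 FPKM, others 28.5 to 33.2). Among Unknown dogs, dog 026 was low for PSMB4 initially (67.0 FPKM, others 83.4 to 87.9), and dog 031_032 was low for the change of PSMD4 (-0.61, others -0.05 to 0.12).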

How the results depend on the processing

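The count of called genes stayed at 0 of 22 under the pseudocount of 0.1, no filter, scaled FPKM, no replicate block, 14 pairs, edgeR and the FPKM of 9 dogs in every comparison they were run for. Over all genes, the fit without a filter called 3017 as higher and 37 as lower of 32008 in all pairs. Scaled FPKM gave 197 and 74 of 13506 between T-Cell and B-Cell dogs initially. DESeq2 on the counts of 9 dogs called 1 gene in all pairs, 1 in T-Cell dogs and 2 between T-Cell and B-Cell dogs initially. The initial T-Cell against B-Cell count was 4 without dog 038, 2 without dog 029 and 7 without dogs 029 and 038, and 0 to 4 over all dogs left out in turn. Leaving out dogs one by one gave 0 in the other comparisons and 0.28 to 0.39 for PSMB9 minus PSMB7. PSMB9 with TAP1 had r = 0.349 without T-Cell dogs. The replicate block changed no call: without it the counts stayed at 0, and 0 of 22 genes had an unadjusted p under 0.05 in all pairs, against 1 with it. On the counts of 9 dogs edgeR put the median change of all genes at -0.29 and that of the 22 at -0.50, where DESeq2 had -0.07 and -0.28. The T-Cell minus B-Cell difference at 6 weeks was positive for 9 of 22 genes, and for 13 with scaled FPKM. Of 57 changes or differences of single genes given in full, 46 moved by over 1.5 times or turned in sign when some dog was left out, and 13 turned. The 9 changes or differences of single genes with an unadjusted p under 0.05 kept their sign in 222 of 222 values under alternatives. They passed the test in 13 of these values. Both numbers count some fits more than once. The T-Cell against B-Cell fits without dog 029 and without dog 038 were entered repeatedly, and the fit on 14 pairs is also a fit with 1 dog left out. The 9 were chosen by their p and refitted on largely the same dogs, so the kept signs are no independent evidence. The change of PSMB9 with that of TAP1 had r = 0.744 without T-Cell dogs (permutation p = 0.0057) and r = 0.389 with scaled FPKM (permutation p = 0.165). The initial comparison holds 3 dogs against 7, which limits what a count of 0 says.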

Other observations

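In T-Cell dog 036, PSMD11 and its neighbours were high together before treatment. At 6 weeks PSMD11 lay -0.13 from the median of the 15 dogs on the log2 scale, and its 10 named neighbours within 15 protein-coding genes on either side in the RefSeq order lay at 0.06 (median). In the initial library PSMD11 lay 0.87 above the median and the neighbours 0.98 above it. PSMB9 in dog 028 lay -0.87 from the median at 6 weeks and -0.82 initially, and its 6 named neighbours lay at -0.99 at 6 weeks and -1.11 initially. In dog 036 PSMB9 lay 1.04 above the median at 6 weeks and -0.33 from it initially, where the same neighbours lay at -0.10 at 6 weeks and -1.08 initially. Of 285 pairs of a gene and a dog with at least 5 named neighbours, 12 had neighbours more than 0.5 from the median initially, and the dogs named here were chosen after the values were seen.

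Genes of the wider proteasome system had fitted changes in both directions in T-Cell dogs, none past the test. NFE2L2, a transcription factor of the oxidative stress response, had a change of 1.04 ± 0.39 (adjusted p = 0.173) and RAD23B, a shuttle for ubiquitinated proteins, 0.55 ± 0.21 (adjusted p = 0.176). PSMG1, the partner of PSMG2 in assembly of the alpha ring, had -0.87 ± 0.30 (adjusted p = 0.154), and UBE3C, a ligase bound to the proteasome, -0.53 ± 0.17 (adjusted p = 0.137). Limma called 0 of these 15 named genes in each of the 7 comparisons. Of 16 interferon and class I genes 7 had a symbol, and over all dogs 4 were positive and 3 negative, with a median of 0.05. IRF1, a transcription factor induced by interferon, had 0.27 ± 0.15 (adjusted p = 0.458).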
